A study of Capsicum annuum with 12 samples.

Results

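The regions described here are the H3K9me2 intervals in the middles of chromosomes 3 to 12 of the pepper Capsicum annuum. The rule used overlap of the libraries and position, but it was chosen with earlier results of these data known. The middles of the chromosomes left out had another make-up, described at the end of these results. The peaks of each of the 2 H3K9me2 libraries were merged, and the bases covered in both were taken as shared intervals. Those whose midpoint lay between 30% and 70% of the chromosome's length were kept. This gave 918 middle intervals, 30.3% of the 3025 shared intervals on chromosomes 3 to 12 and 21.5% of the 4266 on all 12 chromosomes. They were set against the 1418 shared intervals in the outer 15% of each end of the same chromosomes, called end intervals below. A further 689 lay between the zones.

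The study measured 3 histone marks by chromatin immunoprecipitation sequencing in young leaves of cultivar cv. 59, within work on the folding of the pepper genome. The labels list 12 samples, namely 2 immunoprecipitated replicates each of H3K9me2 (antibody ab1220), H3K4me3 (ab8580) and H3K27me3 (07-499), and an input for each of these 6. All come from the same cultivar and tissue with no treatment or mutant, and the labels do not say whether replicates are separate plants. Whole leaves hold many cell types, so an interval can reflect a part of the cells only.

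H3K9me2, dimethylation of lysine 9 of histone H3, is placed in Arabidopsis by methyltransferases of the SUVH family and is kept up there in a loop with DNA methylation at CHG sites by the enzyme CMT3. In plants it is known from silent transposons and other repeats, which fill the gene-poor inner parts of large plant chromosomes. H3K4me3 marks the starts of genes in use and H3K27me3 marks genes kept silent by Polycomb proteins, and both lie mostly in the gene-rich outer parts of such chromosomes.

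The middle intervals were short, weak and mostly alone. Their width ran from 2 to 970 bp with a median of 251 bp, and 45 of them were under 100 bp. The authors' fold enrichment, a linear ratio of the fragments over a peak's summit to the local background, had a median of 4.38 in replicate 1 (range 2.42 to 17.3) and of 4.40 in replicate 2 (range 2.47 to 16.2). The medians of the libraries were alike, and their ranges overlap. The median middle interval rested on 18 fragments over the summit in replicate 1 and 17 in replicate 2, with a −log10 q of 5.004 and 4.987. In all, the 918 intervals held 248 kb of shared sequence over a span of 1022 Mb, or 243 bp per Mb. A −log10 q of at least 5 in both replicates was reached by 250 of them (27.2%), and one of at least 10 by 29 (3.16%). End intervals were about as short and weak, with a median width of 263 bp and a median of 18 fragments in each replicate. Among them, 422 (29.8%) reached a −log10 q of at least 5 in both replicates.

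The replicates ranked the middle intervals by fold only loosely. Membership requires an overlap of both libraries, so the summits lie near each other by the choice of the intervals, and the offsets are given as a description. The summits of the 2 libraries lay within 100 bp of each other in 593 of the 918 middle intervals (64.6%), with a median offset of 67.5 bp. Among end intervals the same held for 674 of 1418 (47.5%), with a median offset of 112 bp. Across middle intervals, Pearson's r between the fold of replicates 1 and 2 was 0.286 and Spearman's rho was 0.108 (n = 918). The numbers of fragments gave an r of 0.886 and a rho of 0.642. End intervals were ranked loosely by fold as well, with an r of 0.295 and a rho of 0.207 (n = 1418). Their numbers of fragments gave 0.992 and 0.630. These are descriptions across intervals that share a library and its local depth. The higher fold was at most 1.5 times the lower in 79.7% of middle intervals, with a median ratio of 1.24. At the ends this held for 85.1%, with a median ratio of 1.22.

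Shared H3K9me2 intervals were less dense in the middles than at the ends. This counts short peaks called against a local background, and the amount of H3K9me2 over longer stretches was not measured. The middles held 0.882 ± 0.241 intervals per Mb (SD, 10 chromosomes), against 1.87 ± 0.725 at the ends. The difference of −0.988 ± 0.883 per Mb had the middle lower on 9 of 10 chromosomes (exact two-sided sign-flip test over chromosomes, p = 0.00391, adjusted p = 0.00502). Here and below, the test sets the middle against the ends of the same chromosome, and adjusted p-values are Benjamini-Hochberg values over the 9 measures compared. The smallest p that 10 chromosomes allow is 0.00195. Chromosomes are parts of one genome, so these p-values speak of the arrangement along it and not of the spread between plants.

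Much of the density difference lay in loci at the ends that hold many intervals. When intervals within 10 kb of each other were counted as one, the middles held 0.788 loci per Mb and the ends 1.02 over the whole span. With peaks joined within 10 kb before the replicates were intersected, the difference was −0.258 per Mb and did not pass the test (middle lower on 8 of 10 chromosomes, adjusted exact p = 0.155). With peaks of a −log10 q of at least 10 the difference was −0.119 per Mb (adjusted exact p = 0.191). Few intervals reached that limit in both replicates, namely 29 in the middles (3.16%) and 101 at the ends (7.12%). The smaller difference per Mb is thus not a smaller contrast relative to the ends. The density difference did not pass in the single libraries either, although it was larger there in peaks per Mb. These lists were denser, and relative to the density of the ends the difference was smaller in them than in shared intervals. Replicate 1 alone had 5.62 ± 0.421 peaks per Mb in the middles and 6.77 ± 1.53 at the ends, and replicate 2 alone 4.25 ± 0.424 and 5.56 ± 1.58 (SD, 10 chromosomes). The adjusted exact p was 0.0840 without replicate 2 and 0.0586 without replicate 1.

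**Figure D1:**
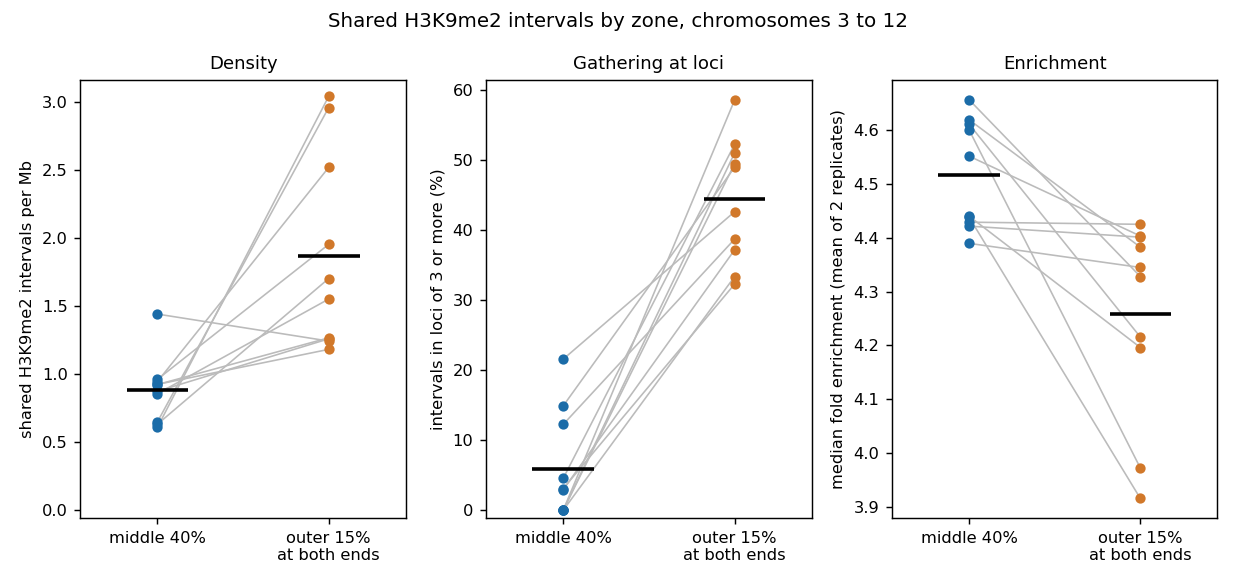
Density, share of intervals in loci of 3 or more, and median fold enrichment of shared H3K9me2 intervals in the middle 40% (left, blue) and the outer 15% at both ends (right, orange) of chromosomes 3 to 12. Each point is a chromosome, grey lines join the zones of a chromosome, and black bars are means over 10 chromosomes; the middle is lower in density on 9 of them, lower in gathering on all 10 and higher in fold on all 10.

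Along the chromosomes the density was highest near the tips and uneven through the middle. In steps of 5% of the length, neighbouring steps of the middle held the most and the fewest members, with 150 intervals or 1.17 per Mb at 35 to 40% (95% exact Poisson interval 0.994 to 1.38, counting error only) and 83 intervals or 0.650 per Mb at 40 to 45% (0.518 to 0.806). With each locus counted once these steps had 0.987 and 0.548 loci per Mb. Outside the middle, the density at 15 to 20% was 0.807 per Mb (0.658 to 0.978). It was 2.18 and 2.85 per Mb in the first and second step of the chromosomes and 3.03 in the last step. The inner edges of the end zones, at 10 to 15% and 85 to 90%, had 1.08 and 0.681 per Mb, which overlaps the range of the middle. The peaks of single replicates followed the same course with a smaller rise: replicate 1 had 5.21 to 6.48 peaks per Mb in the steps of the middle and 9.78 in the last step, and replicate 2 had 3.74 to 4.94 and 8.52.

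**Figure D2:**
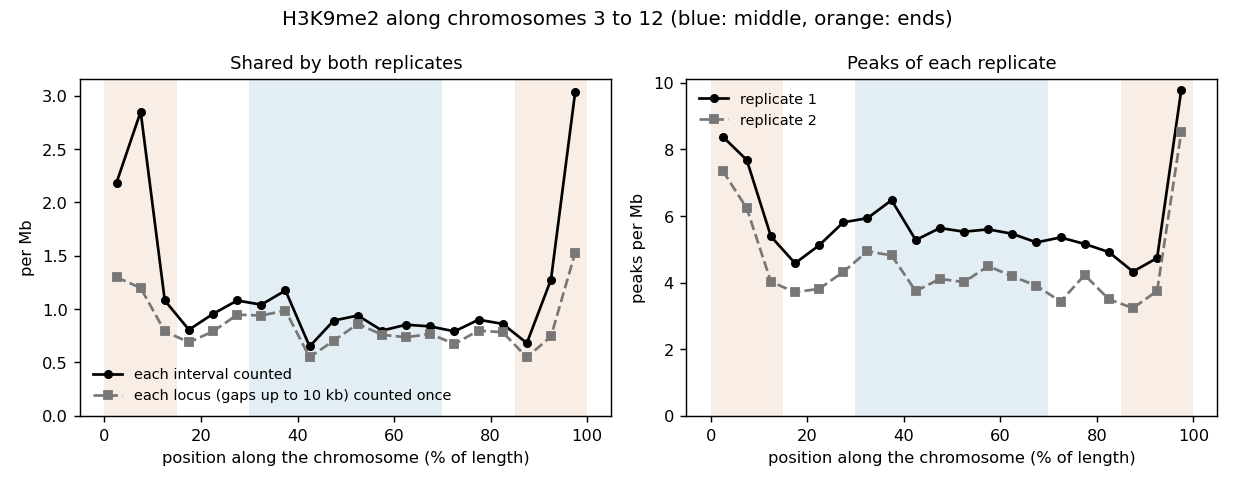
H3K9me2 along chromosomes 3 to 12 in steps of 5% of the chromosome's length, with the middle shaded blue and the ends orange. Left, shared intervals per Mb (black) and loci per Mb with intervals within 10 kb counted once (grey); right, peaks per Mb of replicates 1 and 2; steps of the middle run from 0.650 to 1.17 shared intervals per Mb, and the last step reaches 3.03.

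Among chromosomes 3 to 12, chromosome 3 had the densest middle, and it was the one of these 10 with a higher density in the middle than at its ends. It held 167 middle intervals, 1.44 per Mb (95% exact Poisson interval 1.23 to 1.68, counting error only), against 1.24 per Mb at its ends (1.02 to 1.502), and these intervals overlap. Chromosomes 7, 10, 12, 11, 9 and 6 followed with 0.962, 0.946, 0.925, 0.924, 0.874 and 0.856 per Mb, and their intervals all overlap. The sparsest middles were those of chromosomes 5 (0.649 per Mb), 8 (0.632) and 4 (0.608, interval 0.465 to 0.781), which do not differ beyond counting error. On chromosomes 4 and 5 the sparse middles stood beside the densest ends, with 3.05 and 2.96 per Mb.

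The middle intervals were spread out singly, while the end intervals gathered. Of the 918 middle intervals, 725 (79.0%) had no other shared interval within 10 kb, 122 lay in pairs and 71 (7.73%) in 19 loci of 3 or more. At the ends 553 of 1418 (39.0%) were single, and 663 (46.8%) lay in 126 loci of 3 or more. By chromosome, the share in such loci was 5.93% ± 7.63 in the middles and 44.4% ± 8.87 at the ends (SD, 10 chromosomes). The difference of −38.5 points had the middle lower on 10 of 10 chromosomes (exact p = 0.00195, adjusted p = 0.00352). Without replicate 2 it was −27.6 points and without replicate 1 −33.4 points, also past the threshold. It did not pass it with peaks of a −log10 q of at least 5 (−18.9 points, adjusted exact p = 0.0879). The middles of chromosomes 4, 6, 7 and 8 held no locus of 3 or more, and that of chromosome 3 held 10 of the 19.

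Spacing showed the same contrast. The gap from one middle interval to the next had a median over chromosomes of 713 ± 273 kb, against 45.9 ± 46.9 kb at the ends (mean ± SD of the chromosomes' medians, n = 10). The mean log2 ratio of middle to ends was 4.60 ± 1.87, which is 24.2-fold, with the middle wider on 10 of 10 chromosomes (exact p = 0.00195, adjusted p = 0.00352). The size of this ratio depended on the intersection of the replicates, on joining and on the zones. In the peaks of replicate 2 alone the log2 ratio was 2.41 and in those of replicate 1 alone 1.91. With the replicates intersected, it was 3.46 with peaks joined within 1 kb, 2.58 with peaks joined within 3 kb, and 2.89 with the middle taken as 25 to 75% and the ends as the outer 25%. All 5 values passed the threshold. Over all 908 gaps of the middles the median was 0.558 times the mean, and 37.3% exceeded 1 Mb. Over the 1398 gaps of the ends the median was 0.0323 times the mean, 45.6% were within 10 kb and 16.0% exceeded 1 Mb. The longest gap of a middle was 10.5 Mb, on chromosome 12. Of 1017 bins of 1 Mb in the middles, 474 (46.6%) held no member, 327 held 1, 134 held 2 and 82 held 3 or more, up to 10.

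**Figure D3:**
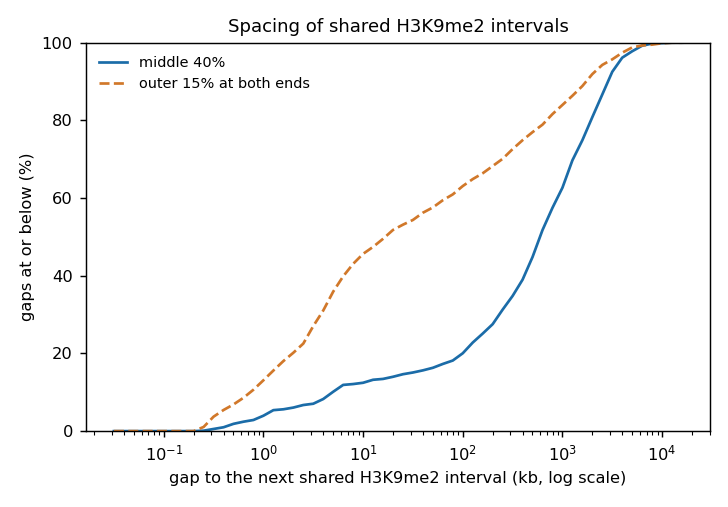
Cumulative share of gaps between consecutive shared H3K9me2 intervals of one zone, against gap length in kb on a log scale, for the middles (blue, solid) and the ends (orange, dashed) of chromosomes 3 to 12. Within 10 kb lie 12.4% of the gaps in the middles and 45.6% of those at the ends.

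The few loci in the middles differed among themselves in local background, the level of fragments against which the caller weighed a peak, given here as a multiple of the lowest of the library. The largest held 8 intervals within 10.1 kb on chromosome 9 from 102527967 to 102538035. Its median fold was 4.69 and 4.80 in replicates 1 and 2, and its median background of 2.38 and 2.22 was like that of other middle intervals. The next held 7 intervals of a median 538 bp on chromosome 3 from 136266496 to 136274083, with a fold of 4.58 and 4.38. Its background was 9.16 and 14.5 times the lowest, and all 7 exceeded 5 times the lowest. A locus of 5 intervals lay on chromosome 10 from 103430701 to 103448418 (fold 4.79 and 4.96). The 3 loci of 4 intervals lay on chromosome 3 from 89058891 to 89064854 (fold 3.24 and 3.94) and from 190103957 to 190107440 (fold 5.82 and 5.03), and on chromosome 9 from 135566448 to 135570356 (fold 4.68 and 3.54). In that on chromosome 9 the background was 5.84 and 8.70 times the lowest. In the one on chromosome 3 that starts at 89058891 it was 6.32 and 4.33 times the lowest. There 3 of the 4 intervals exceeded 5 times the lowest in either replicate. The other 13 loci held 3 intervals each. Of the 71 middle intervals in loci of 3 or more, 22 exceeded 5 times the lowest background in either replicate, against 109 of all 918. For comparison, the largest loci at the ends held 35 intervals on chromosome 8 (10190649 to 10291230) and 31 on chromosome 7 (22349206 to 22450390). The background exceeded 5 times the lowest at all intervals of both, with a fold of 3.49 and 3.36 on chromosome 8 and of 3.38 and 2.83 on chromosome 7. Their median gaps were 3.01 and 3.05 kb. The third held 18 intervals on chromosome 10 (248279319 to 248322702), with a fold of 4.24 and 3.88 and a background of 2.85 and 3.08 times the lowest.

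Fold enrichment was slightly higher in the middles than at the ends. The chromosomes' medians averaged 4.52 ± 0.101 in the middles and 4.26 ± 0.183 at the ends (SD, n = 10), a difference of 0.257 ± 0.213 with the middle higher on 10 of 10 chromosomes (exact p = 0.00195, adjusted p = 0.00352). Local background moved the other way, at 2.39 ± 0.234 times the lowest in the middles and 2.79 ± 0.462 at the ends (difference −0.407, lower on 9 of 10, exact p = 0.00391, adjusted p = 0.00502). With peaks above 5 times the lowest background left out, the fold differed by 0.203 and passed the test (adjusted exact p = 0.0110), while background still differed by −0.205 (adjusted exact p = 0.00352). Background was solved from fold and the p-value, so it is not a separate observation from fold. Whether the lower background accounts for the higher fold was not tested. With peaks of a −log10 q of at least 5 the fold difference was larger, at 0.576 (middle higher on 9 of 10, adjusted exact p = 0.0132). With peaks joined within 3 kb it was 0.0576 and did not pass (adjusted exact p = 0.350). Among the middle intervals, the 109 (11.9%) with a background above that limit in either replicate had median folds of 3.78 and 3.85 in replicates 1 and 2, and the remaining 809 had 4.47 in each. At a like number of fragments a higher background goes with a lower fold by the way it was solved, so this split is a description.

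Width was not shown to differ between the zones in shared bases. The median was 249 ± 9.15 bp in the middles and 258 ± 19.2 bp at the ends (SD, 10 chromosomes), a difference of −9.20 bp with the middle narrower on 6 of 10 (exact p = 0.287, adjusted p = 0.287). The whole peaks of the single libraries did differ: they were narrower in the middles on 10 of 10 chromosomes, with a difference of −36.2 bp without replicate 1 and −26.95 bp without replicate 2 (adjusted exact p = 0.00223 each).

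The order of the zones in strong intervals differed between −log10 q and fold. A −log10 q of at least 10 in both replicates was reached by 29 middle intervals (3.16%) and by 101 end intervals (7.12%). A mean fold of at least 10 was reached by 8 middle intervals (0.871%) and by 2 end intervals (0.141%). All 8 in the middles were single, where 79.0% of all middle intervals are, and so were both at the ends. The highest was 718 bp on chromosome 8 from 111318196 to 111318913, with a fold of 14.2 in replicate 1 and 15.2 in replicate 2 on 84 and 116 fragments. It lay 488 kb from the nearest shared H3K4me3 interval and 624 kb from the nearest shared H3K9me2 interval. Next came 467 bp on chromosome 6 from 98532082 to 98532548, with 13.3 and 13.3, and 629 bp on chromosome 5 from 132558240 to 132558868, with 13.4 and 13.1. In these 3 the replicates differed by little.

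A pair of further strong intervals, also on chromosome 5, was higher in replicate 1 than in replicate 2. The one from 152147755 to 152148298 had a fold of 17.3 and 9.03 on 85 and 64 fragments, and that from 156704398 to 156705041 had 16.4 and 7.98 on 115 and 106 fragments. The local background of both was lower in replicate 1 (2.97 against 4.71, and 4.52 against 9.42 times the lowest). The strongest end interval, on chromosome 4 from 241473682 to 241474123, had 14.9 and 9.66. The end intervals next in fold had 11.95 and 8.33 on chromosome 8 from 169986127 to 169986450 and 10.4 and 8.33 on chromosome 12 from 14405904 to 14406401.

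Length and strength went together only in part. The longest middle interval, 970 bp on chromosome 3 from 190105321 to 190106290, reached a fold of 5.82 and 5.42 on 27 and 20 fragments, and 845 bp from 190106596 to 190107440 in the same locus had 5.82 and 5.07. The second longest, 916 bp on chromosome 9 from 135567326 to 135568241, had 4.20 and 3.70. On chromosome 3 the 879 bp from 136271806 to 136272684, within the locus of 7, had 4.96 and 5.88 on 88 and 90 fragments. The 832 bp on chromosome 10 from 125433034 to 125433865 had 4.77 and 3.61. Across the 918 middle intervals, width and mean fold had a Pearson r of 0.283 and a Spearman rho of 0.163.

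Middle intervals lay farther from H3K4me3 and H3K27me3 than end intervals. The chromosomes' median distance to the nearest shared H3K4me3 interval averaged 159 ± 42.4 kb in the middles and 92.0 ± 63.6 kb at the ends (SD, n = 10). The mean log2 ratio was 1.00 ± 0.933, with the middle farther on 8 of 10 chromosomes (exact p = 0.0156, adjusted p = 0.0176). Limited to peaks whose −log10 q reached 5, this ratio was 0.959 and did not pass (adjusted exact p = 0.0645). To H3K27me3 the distance averaged 515 ± 109 kb in the middles and 94.1 ± 28.1 kb at the ends, a log2 ratio of 2.49 ± 0.687 with the middle farther on 10 of 10 (exact p = 0.00195, adjusted p = 0.00352). Both other marks were themselves sparser there: the middles had 3.36 shared H3K4me3 and 1.93 shared H3K27me3 intervals per Mb, against 20.6 and 21.3 per Mb at the ends.

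Relative to what each zone offers, the order turned round. Every kilobase of a zone was given its own distance to the nearest interval of the mark, and the H3K9me2 median was divided by the median of its zone and chromosome. For H3K4me3 this ratio was 1.17 ± 0.262 in the middles, above 1 on 6 of 10 chromosomes, and 3.20 ± 2.33 at the ends, above 1 on 9 of 10. The log2 ratio of middle to ends became −1.17 (exact p = 0.0117, adjusted p = 0.0151). With peaks joined within 10 kb before the replicates were intersected it was −0.794 (adjusted exact p = 0.0220). For H3K27me3 the ratio was 1.14 ± 0.151 in the middles, above 1 on 8 of 10 chromosomes, and 1.76 ± 0.646 at the ends, above 1 on 9 of 10. The log2 ratio of middle to ends was −0.540 (exact p = 0.0430, adjusted p = 0.0483). It did not pass with peaks joined within 10 kb before the intersection (−0.439, adjusted exact p = 0.0563). The middle intervals thus lay little farther from either mark than an average kilobase of the middles. Close to H3K4me3 the shares still parted: 7 of the 918 middle intervals (0.763%) lay within 5 kb of it, against 3.32% of the middles' kilobases, and 64 (6.97%) within 20 kb, against 11.1%. At the ends, 1.48% of the end intervals lay within 5 kb of H3K4me3, against 17.6% of the kilobases.

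**Figure D4:**
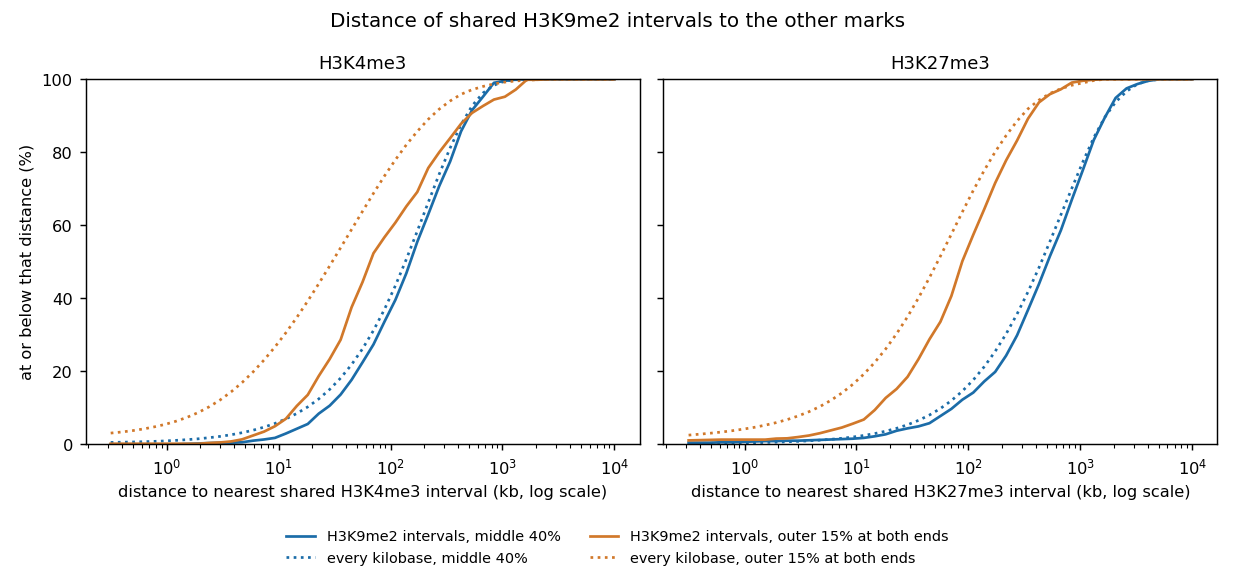
Cumulative share of shared H3K9me2 intervals (solid) and of all kilobases of the zone (dotted) against the distance in kb, on a log scale, to the nearest shared H3K4me3 (left) or H3K27me3 interval (right), for the middles (blue) and the ends (orange) of chromosomes 3 to 12. In the middles the solid and dotted curves run close together (medians of 151 and 136 kb to H3K4me3), while at the ends they are apart (66.3 and 30.1 kb).

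Few intervals of either zone overlapped the other marks, but for H3K27me3 in the middles the share was not below that of the zone itself. Shared H3K4me3 was overlapped by 0 middle and 1 end interval, and shared H3K27me3 by 4 of the 918 middle and 15 of the 1418 end intervals. The marks cover little of the middles. Within 0.316 kb of H3K27me3 lay 0.436% of the middle intervals and 0.230% of the kilobases there, against 1.06% and 2.501% at the ends. Within that distance of H3K4me3 lay 0% of the middle intervals and 0.509% of the kilobases there, against 0.141% and 3.06% at the ends. The middle interval nearest to H3K4me3 lay 1.33 kb away on chromosome 11 (165125248 to 165125472), with a fold of 4.42 and 2.92 in replicates 1 and 2. It was followed by 1.71 kb on chromosome 7 from 147245373 to 147245748 (5.55 and 6.32) and 2.37 kb on chromosome 12 from 153947689 to 153947775 (4.06 and 3.68). The farthest lay 1450 kb away on chromosome 11 from 85980204 to 85980495 (fold 4.04 and 3.62), followed by 1299 kb on chromosome 7 from 155289394 to 155289610 (4.01 and 5.81) and 1257 kb on chromosome 12 from 178324845 to 178325213 (5.18 and 3.78). The fold of the nearest and the farthest covered a like range.

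Of the 4 that overlapped H3K27me3, 3 lay on chromosome 3 and 2 of these belong to the locus of 7, from 136270154 to 136270438 (fold 3.44 and 4.01) and from 136273546 to 136274083 (6.69 and 4.73). The third on chromosome 3, from 110868709 to 110868900, had 3.71 and 3.81. The interval on chromosome 10 from 75886492 to 75886961 had 7.08 in replicate 1 and 15.6 in replicate 2, with a background of 6.32 and 2.90 times the lowest.

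Peaks in the middles were found in both replicates less often than peaks at the ends. Of the 5763 middle peaks of replicate 1, 14.6% were overlapped by replicate 2 over at least 50% of the shorter peak (95% Wilson interval 13.7 to 15.5%), against 22.8% of 5147 end peaks. Of the 4370 middle peaks of replicate 2, 19.2% were overlapped (18.1 to 20.4%), against 28.1% of 4230 end peaks. By chromosome, the mean share of both libraries ran from 12.7 to 22.8% in the middles and from 18.98 to 29.9% at the ends. It was lower in the middle on 10 of 10 (difference −8.48 ± 5.87 points, SD, exact p = 0.00195, adjusted p = 0.00352). Depth moved with this: the median peak had 14 fragments over the summit in the middles and 16 at the ends, in both libraries.

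At like depth the order was not steady. Among peaks of 15 to 19 fragments, 17.7% of middle and 23.5% of end peaks of replicate 1 were found again, and 24.5% and 28.1% of those of replicate 2. At 20 to 29 fragments the shares were 40.6% in the middles and 38.2% at the ends for replicate 1, and 49.4% and 46.0% for replicate 2. At 30 to 49 fragments they were 73.6% (of 72 peaks) and 60.2% (of 118) for replicate 1 and 81.6% (of 49) and 75.6% (of 90) for replicate 2. At 10 to 19 fragments the 95% intervals of the zones parted in replicate 1 and overlapped in replicate 2. From 20 fragments on, they overlap in both libraries. Most middle peaks lay below that depth: 2947 of the 5763 in replicate 1 had 10 to 14 fragments, and 6.07% of these were found again.

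**Figure D5:**
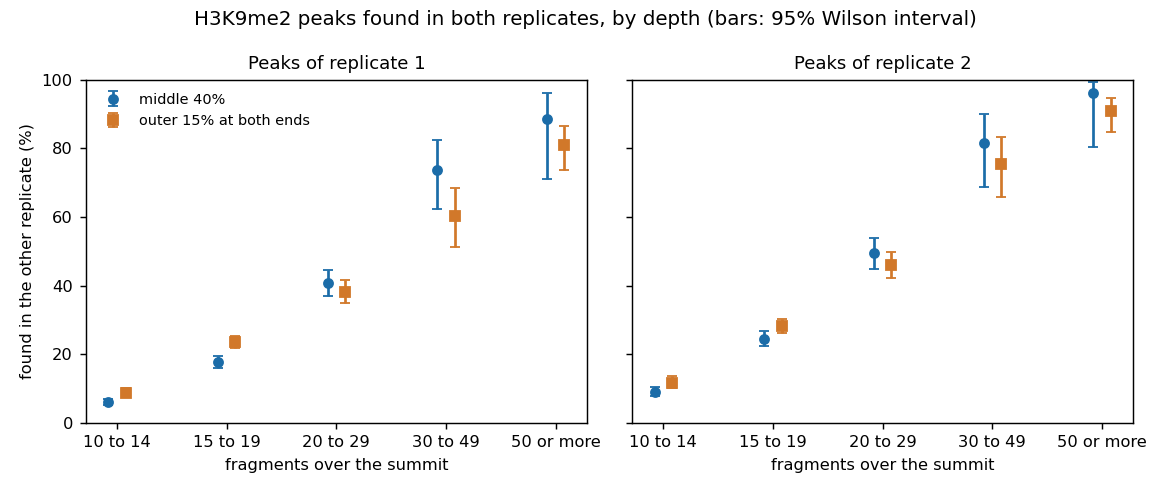
Share of H3K9me2 peaks of replicate 1 (left) and replicate 2 (right) found in the other replicate, by fragments over the summit, in the middles (blue circles) and at the ends (orange squares) of chromosomes 3 to 12; bars are 95% Wilson intervals, which cover counting error only. From 10 to 19 fragments the middle is lower, as at 15 to 19 fragments with 17.7% and 23.5% in replicate 1. There the bars of the zones part in replicate 1 and overlap in replicate 2, and from 20 fragments on they overlap in both.

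The intervals beside the limits of the middle zone are given as a description. The member nearest to the limit of 30% (chromosome 9, 84720664 to 84720882) had a fold of 5.02 and 5.10, and the nearest interval outside it (chromosome 12, 78354487 to 78354702) had 4.27 and 3.92. At 70% the nearest member (chromosome 10, 173721350 to 173721634) had 6.41 and 3.37, and the nearest outside (chromosome 9, 196273554 to 196273689) had 3.87 and 3.93. The intervals between the zones had 0.899 per Mb, like the 0.899 per Mb of the middles over their whole span, with 76.3% single intervals. Their pooled median of mean fold was 4.43, against 4.51 in the middles and 4.26 at the ends. Their pooled median background was 2.51 times the lowest, against 2.40 in the middles and 2.64 at the ends. The intervals between the zones lay nearer to the other marks than the middle intervals. The pooled median distance to H3K4me3 was 151 kb in the middles and 101 kb between the zones, and that to H3K27me3 515 kb and 193 kb. No test of these differences was made.

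The middles of chromosomes 1 and 2 had another make-up, which was described and not tested. They held 461 shared intervals, 2.25 per Mb, of which 263 (57.0%) lay in loci of 3 or more and 90 (19.5%) were single. Their median background was 6.58 times the lowest, and 82.2% exceeded 5 times the lowest in either replicate, against 2.40 times and 11.9% in the middles of chromosomes 3 to 12. Their median fold was 3.76 and 3.63 in replicates 1 and 2.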

How the data were processed

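The 6 peak lists, 1 per immunoprecipitated library, were used as deposited. The submitters' processing notes name MACS2 2.2.7.1 and BWA 0.7.17, besides Trimmomatic 0.38 and deepTools 3.3.0, with no roles given; peak names in the lists say that an input was included. The authors' caller gave each peak a fold enrichment (a linear ratio), a −log10 p-value and a −log10 q-value, the last at least 2.01 in the H3K9me2 lists. The sources used here do not give the build, and no gene or sequence was assigned, as the gene table at hand is of another assembly. A chromosome's length was taken as the end of its last peak in any of the 6 lists.

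Peaks that overlapped or touched were merged per library and intersected between replicates, with no minimum width. Positions count from 1. An interval's fold in a library is that of its highest peak. Fragments n and background were solved from fold, read as (n + 1) over (background + 1), and a Poisson p; in 100% of the H3K9me2 peaks on the chromosomes n was whole to within 0.01. Total reads per library are unknown here. Medians needed at least 3 intervals per zone. Zones were compared by exact two-sided sign flips over 10 chromosomes, with a threshold of 0.05 on adjusted p.

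Named are the 5 members of highest fold, the 5 longest, the 3 nearest to and the 3 farthest from H3K4me3, those that overlap another mark, the 5 largest loci and 1 of equal size, the nearest interval on each side of both zone limits, and at the ends the 3 of highest fold and the 3 largest loci. The members and lists were chosen with earlier results of these data known. Alternatives changed the limits on q, fold and background, joining, minimum width, zones, chromosomes, overlap and locus rules, or left out a replicate. Counting a locus once, by joining peaks within 10 kb before the intersection, and distances relative to the zone were added after seeing the data. Functions were tested on simulated data. Python 3.11.15, numpy 2.4.6, scipy 1.17.1 and matplotlib 3.10.9 were used.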

Additional observations from a re-analysis of the deposited data

How the results depend on the processing

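Of 119 values recomputed under alternatives, 98 kept their direction and their side of the threshold. The cause of the other changes was not tested. At a −log10 q of at least 5, the log2 ratio of distances to H3K4me3 was 0.959 (adjusted exact p = 0.0645), gathering differed by −18.9 points and background by −3.19 (adjusted exact p = 0.135), none past the threshold. At a −log10 q of at least 10, density differed by −0.119 per Mb (adjusted exact p = 0.191) and the share found again by −9.30 points (adjusted exact p = 0.330). The other measures had at most 2 chromosomes with enough intervals there and gave no value. Joining within 1 kb and 3 kb brought the width difference of middle minus ends past the threshold, at −37.8 and −95.2 bp. Joining within 3 kb gave a fold difference of 0.0576 (adjusted exact p = 0.350) and a background difference of −0.172 (adjusted exact p = 0.116). With all 12 chromosomes the background difference was −0.294 (adjusted exact p = 0.105).

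Leaving out a replicate gave a density difference between −1.31 and −1.15 per Mb, not past the threshold, and a width difference between −36.2 and −26.95 bp, past it. The replicate block, the mean of the differences within each replicate's own list, gave −1.23 per Mb (adjusted exact p = 0.0742) and −31.6 bp (adjusted exact p = 0.00223), and changed no other call. Relative to the zone, the log2 ratio of distances was −1.17 for H3K4me3 and −0.540 for H3K27me3. With peaks joined within 10 kb before the intersection these were −0.794 and −0.439, and density differed by −0.258 per Mb. The share found again needs both replicates and was not computed without one.

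A limit of these results is that middle peaks rested on few fragments. Their median was 14 over the summit, and few peaks with that number were found in both replicates.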
